A study of Mus musculus with 7 samples.

Results

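Aminoacyl-tRNA synthetases join each amino acid to its tRNA before the tRNA enters the ribosome. Animals carry one nuclear-encoded set for the cytosol and another, also nuclear-encoded, for translation inside mitochondria. The enzymes fall into class I and class II, which have unrelated catalytic folds, and several cytosolic ones are held together with scaffold proteins in the multisynthetase complex. Some of the cytosolic genes are known targets of ATF4, a transcription factor that is made when the initiation factor eIF2alpha is phosphorylated. Erythroblasts depend on both translation systems, since they make globin in the cytosol and the mitochondrially encoded subunits of the respiratory chain in mitochondria.

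The 36 genes examined were 20 cytosolic and 16 mitochondrial synthetases, picked by gene symbol. The rule uses no measured value, although the gene family was proposed with earlier results of these data known. A symbol ending in 2 marks a mitochondrial enzyme. Each gene was represented by the probe set with the highest mean over the arrays among those matched to that gene alone. By this rule 35 of the 36 genes were measured, of 18193 genes in all, through 72 probe sets of 45037. Dars was not analysed here. Gars and Kars are counted as cytosolic, although each is also known to supply the mitochondrial enzyme.

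Expression was compared between TER-119+ CD71+ erythroblasts sorted from bone marrow of reconstituted mice, on 4 Sod2+/+ and 3 Sod2-/- Affymetrix arrays. Sod2 encodes the manganese superoxide dismutase of the mitochondrial matrix. Donor fetal liver cells, taken at E13.5 to E16.5, came from Sod2+/+ or Sod2-/- littermates of heterozygous B6-Sod2tm1Cje matings. Recipients of both genotypes were Ly5.1 congenic C57BL/6 mice, 11 to 15 weeks old, given 1050 rad of gamma irradiation in split doses, so Sod2 was missing only from donor-derived cells. The labels do not say whether each array is a separate mouse, and p-values then measure the spread between these arrays, which may be technical.

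The arrays of one genotype were all distinct, with correlations from 0.986 to 0.994 over all probe sets. The brightest Sod2 probe set read 8.32, 8.62, 8.20 and 8.59 in Sod2+/+ 17, 29, 33 and 37, and 8.47, 8.09 and 8.61 in Sod2-/- 31, 35 and 39, on the log2 scale. These values overlapped and so did not check the genotype labels. Per the study's supplement, the mutant transcript lacks an exon and part of the array's probes for Sod2 lie outside the deletion. Of 16 measured erythroid markers none was called at an adjusted p under 0.05. Their mean level was 11.34 to 11.47 in Sod2+/+ and 11.45 to 11.61 in Sod2-/-. At an unadjusted p under 0.05, 5 were higher, beside 6.68% of all genes. Of 17 B cell markers 8 were called lower in Sod2-/-, beside 4.47% of all genes. Their mean level was 5.82 to 6.06 in Sod2+/+ and 5.13 to 5.34 in Sod2-/-. The mean level of 16 neutrophil markers was 10.1 to 10.55 in Sod2+/+ and 8.90 to 10.14 in Sod2-/-. None was called and 14 were lower at an unadjusted p under 0.05, beside 18.4% of all genes. Mast cell, basophil and eosinophil markers had 3 of 6 called lower, with a mean level of 6.04 to 6.77 in Sod2+/+ and 5.38 to 5.67 in Sod2-/-, and early erythroid progenitor markers 1 of 5, with 6.16 to 6.52 and 5.63 to 6.01. Macrophage markers, with 0 of 10 called, stood 1.38 above their Sod2+/+ mean in Sod2-/- 39, and −0.04 and 0.0015 from it in Sod2-/- 35 and 31. The part of these other cells in the results that follow was not tested. By the study's flow cytometry, Sod2-/- marrow held relatively more immature (basophilic) erythroblasts and fewer reticulocytes and mature red cells. The sorted gate pooled several erythroid stages, so a different mix of stages and a change within cells cannot be told apart here.

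Promoter sequences of the members are shown first, with matches to the letters of known elements. RefSeq promoters, from 250 bases before to 50 after each annotated start on GRCm38.p6, were held for 26 of the 35 measured genes, 12 cytosolic and 14 mitochondrial. Exact matches were sought on both strands. TGATGCAA, one form of the composite element bound by ATF4 with C/EBP proteins, was present in 4 of the 12 cytosolic and 0 of the 14 mitochondrial promoters, and in 0.895% of all 32851 promoters of the same length. Its looser form TGATGNAAN, which takes in every TGATGCAA, added Gars and was present in 3.95% of all promoters. In each line the element is in capitals and the sequence reads 5′ to 3′ along the gene, so that TTGCATCA is the element on the other strand.
Aars chr8:111033710-111033769 plus strand: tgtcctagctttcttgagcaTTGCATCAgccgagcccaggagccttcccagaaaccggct
Iars chr13:49682117-49682176 plus strand: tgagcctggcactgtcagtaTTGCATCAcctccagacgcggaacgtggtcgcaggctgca
Tars chr15:11399634-11399693 minus strand: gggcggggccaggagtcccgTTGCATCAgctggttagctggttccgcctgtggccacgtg
Yars chr4:129189886-129189945 plus strand: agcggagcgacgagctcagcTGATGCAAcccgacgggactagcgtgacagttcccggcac
Gars chr6:55037950-55038009 plus strand: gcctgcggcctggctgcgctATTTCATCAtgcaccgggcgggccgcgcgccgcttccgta

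The element began 112 bases before the start in Aars, 15 before it in Tars, 31 before it in Gars, at base 8 of the transcript in Iars and at base 4 in Yars. In Aars a second match of the looser form, TGATGAAAA, began at base 9 of the transcript. The windows of Aars and Yars lie inside the annotated genes, which begin at 111027778 and 129189734, so their starts are internal ones. All 5 genes had a mean above the Sod2+/+ mean in Sod2-/- erythroblasts, with log2 differences from 0.18 to 0.58, although none was called. The other 7 cytosolic genes with a promoter, which hold no TGATGNAAN in this window, ran from −0.70 to 0.60, with 3 of the 7 above 0. The highest of these 7, at 0.60, was Sars. Nars and Cars, with the largest differences above 0, at 0.91 and 0.64, had no promoter held and fall in neither group. A match describes these letters only, and binding was not measured. Whether the element bears on the differences between genotypes was not tested.

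The 3 synthetases called lower in Sod2-/- erythroblasts, Farsb, Kars and Qars, had none of those elements in their promoters. Farsb held the E-box CACGTG, present in 7.15% of all promoters. Kars and Qars held CCAAT, the letters bound by NFY, present in 37.4% of all promoters, and both read it on the other strand as ATTGG. Neither was particular to these 3 genes: Aars, Iars and Tars, whose means were higher in Sod2-/- erythroblasts, held both CACGTG and CCAAT. The matches are in capitals.
Farsb chr1:78488897-78488956 minus strand: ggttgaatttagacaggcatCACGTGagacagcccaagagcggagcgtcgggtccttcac
Kars chr8:112011478-112011537 minus strand: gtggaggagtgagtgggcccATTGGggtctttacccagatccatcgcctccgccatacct
Qars chr9:108507964-108508023 plus strand: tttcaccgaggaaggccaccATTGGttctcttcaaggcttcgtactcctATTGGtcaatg

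Another motif was found in mitochondrial members alone, though most of their promoters did not hold it. GCATGCGC, the core of the element of NRF1, which controls many nuclear genes for mitochondrial proteins, was present in 3 of the 14 mitochondrial and 0 of the 12 cytosolic promoters, and in 2.71% of all promoters. Vars2 held it at 2 places. The window of Wars2 lies inside the annotated gene, which begins at 99140107, so its start is an internal one.
Rars2 chr4:34614886-34614945 plus strand: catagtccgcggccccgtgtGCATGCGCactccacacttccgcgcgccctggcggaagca
Vars2 chr17:35667599-35667658 minus strand: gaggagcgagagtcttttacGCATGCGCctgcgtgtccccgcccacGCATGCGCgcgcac
Wars2 chr3:99141006-99141065 plus strand: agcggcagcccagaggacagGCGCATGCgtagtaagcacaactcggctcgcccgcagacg

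Of the remaining letters searched, CACGTG was also present in Aars, Ears2, Iars and Tars, and CCAAT in 13 of the 26 genes, 7 cytosolic and 6 mitochondrial. TGACNNNGC, the antioxidant response element, was present in 6 of the 26 genes and in 12.4% of all promoters. The 6 were Aars, Iars and Mars1, which are cytosolic, and Aars2, Lars2 and Nars2, which are mitochondrial.

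In the comparison of genotypes, Sod2-/- erythroblasts had lower levels of 3 of the 19 measured cytosolic synthetases, and no cytosolic synthetase was called higher. The 3 were Farsb, which encodes the beta subunit of the cytosolic phenylalanyl enzyme, Qars, the glutaminyl enzyme, and Kars, the lysyl enzyme. Their levels fell by 0.64 to 0.70 on the log2 scale. Over all genes tested the background was 4.47% called lower and 0.412% called higher, at a Benjamini-Hochberg adjusted p under 0.05 in limma. The share of cytosolic members called lower, 15.8%, rests on 3 genes, and bright probe sets were called lower more often than dim ones: 11.0%, 14.1%, 13.8% and 9.96% of all genes with a mean level of 6 to 7, 7 to 8, 8 to 9 and above 9, against 1.17% below 6. All 19 cytosolic probe sets had a mean above 6, so the 3 lie near what bright probe sets gave as a whole. In bulk RNA from sorted cells, fewer cells of a type and less RNA per cell cannot be told apart.

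**Figure D1:**
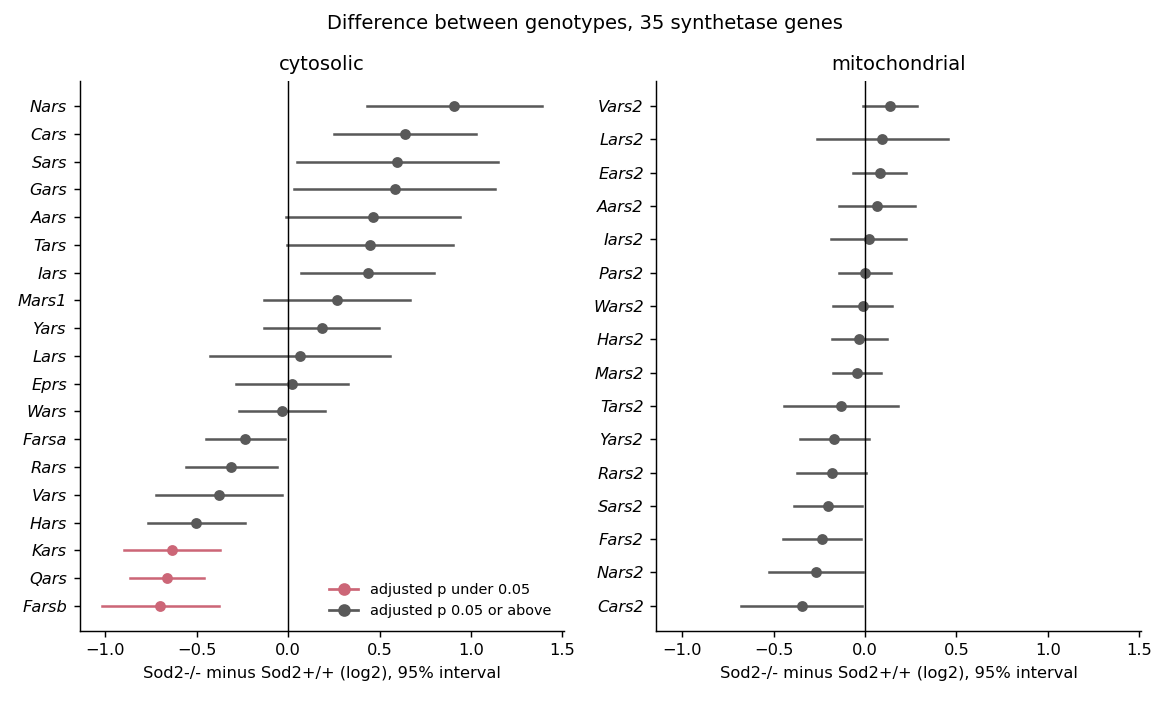
Difference between genotypes for each of the 35 measured synthetase genes, as Sod2-/- minus Sod2+/+ on the log2 scale, with the 95% interval from limma (4 Sod2+/+ and 3 Sod2-/- arrays). Cytosolic genes run from −0.70 for Farsb to 0.91 for Nars, and mitochondrial genes from −0.35 for Cars2 to 0.14 for Vars2, and only Farsb, Qars and Kars, in red, were called.

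Farsb, on chromosome 1 from 78417958 to 78488897 (GRCm38.p6), read 7.31, 7.27, 7.26 and 7.19 in Sod2+/+ 17, 29, 33 and 37, and 6.78, 6.16 and 6.74 in Sod2-/- 31, 35 and 39. The genotypes did not overlap, and Sod2-/- 35 was the lowest by far. Farsb was 1.62-fold lower in Sod2-/- erythroblasts, 7.26 ± 0.053 (SD, n = 4) against 6.56 ± 0.35 (SD, n = 3), with a limma adjusted p of 0.0393. The second Farsb probe set was also called lower, at −0.72 with a limma adjusted p of 0.0498, and the remaining pair, both with means under 5, stood at −0.02 and −0.05. Farsa, the alpha subunit of the same enzyme, differed by −0.24 with a limma adjusted p of 0.214, and was not called, although the enzyme is built from both subunits.

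Qars, on chromosome 9 from 108508005 to 108515941, read 8.54, 8.57, 8.38 and 8.45 in the Sod2+/+ arrays, and 7.94, 7.65 and 7.87 in the Sod2-/- arrays. Every Sod2-/- array was below every Sod2+/+ array. Qars was 1.58-fold lower, 8.49 ± 0.088 (SD, n = 4) against 7.82 ± 0.15 (SD, n = 3), with a limma adjusted p of 0.0150, the lowest among the members. Its probe sets disagreed: a second one was called lower at −0.44 with a limma adjusted p of 0.0445, while another of similar brightness stood at 0.16 with an adjusted p of 0.265.

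Kars, on chromosome 8 from 111993439 to 112011354, has 1 probe set of its own, which read 7.39, 7.57, 7.20 and 7.47 in Sod2+/+ and 6.86, 6.55 and 6.91 in Sod2-/-. The groups did not overlap. Kars was 1.55-fold lower, 7.41 ± 0.16 (SD, n = 4) against 6.77 ± 0.19 (SD, n = 3), with a limma adjusted p of 0.0294. Hars, the histidyl enzyme, came next and was not called, with 9.55, 9.71, 9.34 and 9.29 in Sod2+/+ and 9.11, 8.85 and 8.96 in Sod2-/-, a difference of −0.50 and a limma adjusted p of 0.0554.

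These calls depended on single arrays. Qars stayed below the threshold when any 1 array was left out except Sod2-/- 35, whereas Farsb did so only without Sod2-/- 31, and Kars only without Sod2+/+ 33 or Sod2-/- 31. Without Sod2-/- 35 none of the 3 was called, and 0.352% of all genes were called lower. The fluidics station and chip lot of each array stand in the file headers. Station 1 ran Sod2+/+ 17 and 29 and Sod2-/- 31, and station 2 the other arrays. The Sod2+/+ arrays and Sod2-/- 35 share 1 chip lot and Sod2-/- 31 and 39 another. With chip lot as a block, which rests on Sod2-/- 35 alone, Farsb was at −1.10, Kars at −0.86 and Qars at −0.84, all called, beside 2.54% of all genes lower. With station as a block, Kars, at −0.61, Qars, at −0.64, and Hars, at −0.46, were called lower and Farsb was not, beside 2.70% of all genes, and Cars, at 0.70 with a limma adjusted p of 0.0416, was called higher, beside 0.258%. Within station 1 or station 2 alone no cytosolic member was called in either direction, as for 0 of all genes.

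**Figure D2:**
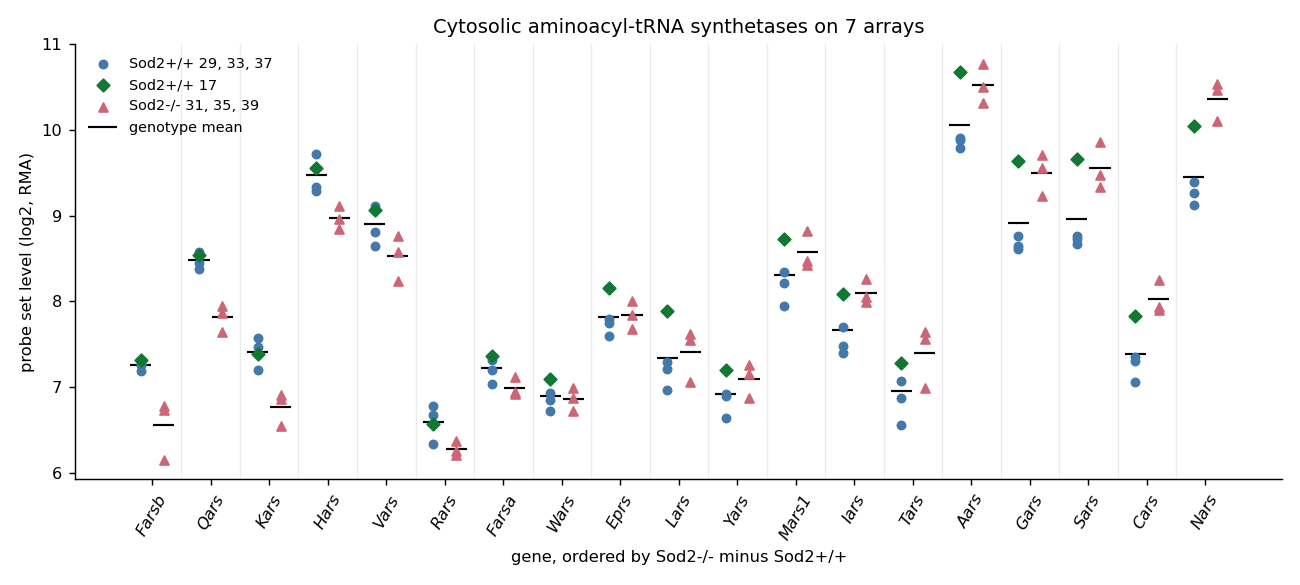
Level of each cytosolic synthetase on each of the 7 arrays (log2, RMA), ordered by the difference between genotypes; bars are genotype means, diamonds are Sod2+/+ 17, circles the other Sod2+/+ arrays and triangles the Sod2-/- arrays. In Aars, Gars and Sars the diamond lies among the triangles, at 10.67, 9.63 and 9.66, while the circles stay between 9.79 and 9.91, 8.61 and 8.76, and 8.67 and 8.76.

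At the other end, several cytosolic synthetases read higher in Sod2-/- erythroblasts without being called. Nars, the asparaginyl enzyme, read 10.05, 9.26, 9.12 and 9.39 in Sod2+/+ 17, 29, 33 and 37, and 10.47, 10.1 and 10.53 in Sod2-/- 31, 35 and 39. Its genotypes did not overlap, though Sod2+/+ 17 came close to Sod2-/- 35. The difference was 0.91, or 1.88-fold, with a 95% interval from 0.43 to 1.39 and a limma adjusted p of 0.0559. The second Nars probe set was called higher, at 1.11 with a limma adjusted p of 0.0361, the only one of the 72 member probe sets called in that direction, where 0.566% of all probe sets were.

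Cars, the cysteinyl enzyme, read 7.83, 7.35, 7.06 and 7.30 in Sod2+/+ and 8.25, 7.90 and 7.93 in Sod2-/-. Again the groups did not overlap and Sod2+/+ 17 was the highest of its genotype. Cars differed by 0.64, or 1.56-fold, with a 95% interval from 0.25 to 1.03 and a limma adjusted p of 0.0810. Its second, dim probe set stood at 0.19.

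Sars (seryl), Gars (glycyl), Aars (alanyl), Tars (threonyl) and Iars (isoleucyl) differed by 0.60, 0.58, 0.46, 0.45 and 0.44, with limma adjusted p from 0.175 for Iars to 0.268 for Aars. In all 5 each Sod2-/- array was above the Sod2+/+ mean. The genotypes overlapped through Sod2+/+ 17 alone in Sars, Gars, Aars and Iars, and through Sod2+/+ 37 as well in Tars. Mars1 (methionyl), Yars (tyrosyl), Lars (leucyl), Eprs (glutamyl and prolyl) and Wars (tryptophanyl) lay between −0.03 and 0.27. Vars (valyl) and Rars (arginyl) were at −0.38 and −0.31, with limma adjusted p of 0.210 and 0.158. The 19 cytosolic members thus spread in both directions: 8 were below 0 and 11 above, with a median of 0.07, and the median over all genes tested was 0.02.

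Before adjustment, p was under 0.05 for 7 of the 19 cytosolic members below 0 and 5 above, beside 18.4% of all genes lower and 6.68% higher. The values of the genotypes did not overlap for 4 lower (Farsb, Qars, Kars and Hars) and 2 higher (Nars and Cars) of the 19, beside 14.8% lower and 7.19% higher among all genes. Among genes of like brightness the median difference was negative, from −0.15 at mean levels of 6 to 7 to −0.31 at 8 to 9. Counted from the median of its own brightness band, Nars stood at 1.08, Cars at 0.92 and Sars at 0.77, and Farsb at −0.55, Qars at −0.36 and Kars at −0.35.

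**Figure D3:**
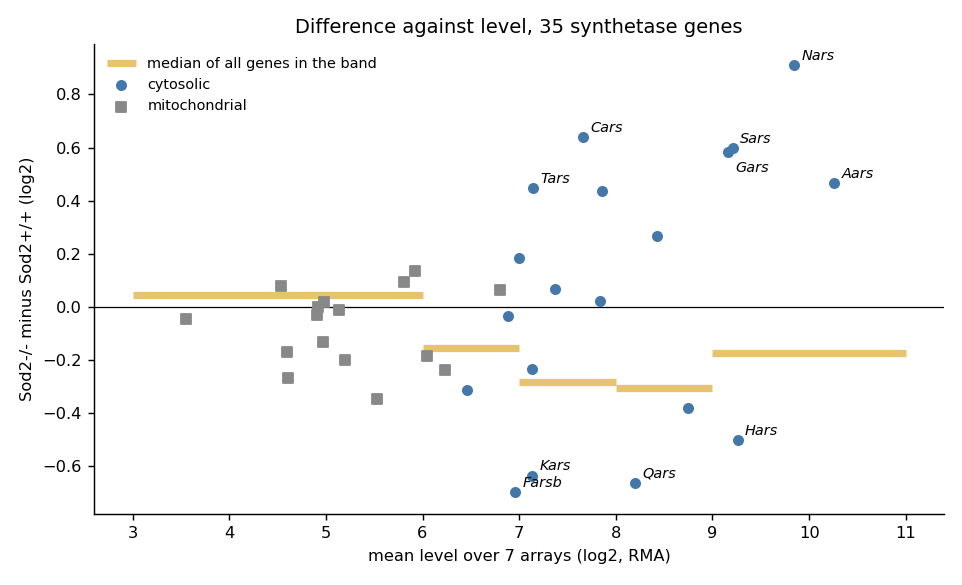
Difference between genotypes (Sod2-/- minus Sod2+/+, log2) against mean probe set level over the 7 arrays (log2, RMA) for the 35 genes, with the median difference of all genes in each brightness band as a horizontal bar. Mitochondrial genes (squares) lie mostly below a level of 6 and near 0, and cytosolic genes (circles) spread from −0.70 to 0.91 at levels above 6, where the band medians are −0.15 to −0.31.

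Position in the multisynthetase complex did not sort the cytosolic genes by direction. Of the 7 measured enzymes of the complex, Kars and Qars were called lower, while Iars was at 0.44, Mars1 at 0.27, Lars at 0.07, Eprs at 0.02 and Rars at −0.31. Of the 12 outside it, Farsb was called lower. The medians were 0.02 in the complex and 0.32 outside it, and that difference was not tested. By class, 1 of 9 class I members and 2 of 9 class II members were called lower, with Eprs, which belongs to both, in neither. Over all genes 4.47% were called lower, and 9.96% to 14.1% in the brightness bands above 6, where all these members lie. Counts this small do not separate the classes, or the complex from the rest.

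Sod2+/+ 17 stood apart from the other Sod2+/+ arrays across the cytosolic synthetases. It had the highest of the 4 Sod2+/+ values for 14 of 19 cytosolic genes, where Sod2+/+ 29, 33 and 37 had it for 4, 0 and 1. Over all genes Sod2+/+ 17 was the highest for 22.7%, and over mitochondrial synthetases for 3 of 16. For 9 of the 19 it exceeded each other Sod2+/+ array by more than 0.3, as did 1.11% of all genes. In Aars it read 10.67 where the other Sod2+/+ arrays averaged 9.86 ± 0.059 (SD, n = 3) and the Sod2-/- arrays 10.52. In Gars it read 9.63, against 8.68 ± 0.080 (SD, n = 3) and 9.50. In Sars it read 9.66, against 8.72 ± 0.047 (SD, n = 3) and 9.55. In these genes Sod2+/+ 17 lay within the range of the Sod2-/- arrays, and this array was singled out after its values were seen. Farsb, Kars and Qars did not share this: there Sod2+/+ 17 differed from the mean of the other Sod2+/+ arrays by 0.08, −0.02 and 0.07.

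Leaving out Sod2+/+ 17 turned the balance of the cytosolic calls. Without it 5 cytosolic genes were called higher and 1 lower, beside 0.275% and 2.31% of all genes, and the cytosolic median rose from 0.07 to 0.25. Nars was then at 1.11 with a limma adjusted p of 0.0192, Gars at 0.82 with 0.0320, Cars at 0.79 with 0.0323, Sars at 0.83 with 0.0367 and Aars at 0.67 with 0.0437. The array was singled out for its high values in such genes, so larger differences and a smaller Sod2+/+ spread follow from its removal. These calls are no separate evidence of direction. The array carries the Sod2+/+ label and nothing in the labels sets it apart, so the values with all 7 arrays remain the main ones. The other 6 arrays left out in turn gave 0 cytosolic genes called higher.

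**Figure D4:**
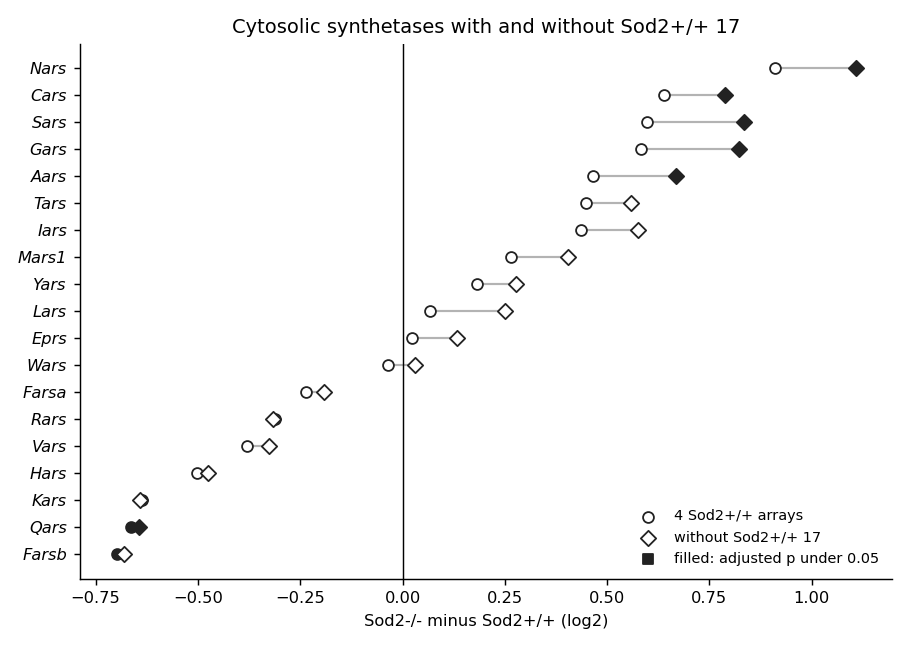
Difference between genotypes (Sod2-/- minus Sod2+/+, log2) for the 19 cytosolic synthetases with all 4 Sod2+/+ arrays (circles) and without Sod2+/+ 17 (diamonds); filled symbols passed an adjusted p of 0.05. Without the array Nars moves from 0.91 to 1.11 and Aars from 0.46 to 0.67, and both are filled, while Qars moves from −0.66 to −0.65. The array was left out because of its high values, so the upward moves follow from that choice.

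No mitochondrial synthetase was called in either direction, beside 4.88% of all genes and 1.17% called lower at the brightness of most of them. Their differences ran from −0.35 to 0.14, with 11 of 16 below 0 and a median of −0.04. Before adjustment 4 had p under 0.05, all below 0, which were Cars2, Nars2, Fars2 and Sars2, beside 18.4% of all genes lower at that level. The 95% intervals of the brightest probe sets of all 16 lay between −0.68 and 0.45, so a 2-fold change was outside each of them. The interval of the second Iars2 probe set, from −1.10 to −0.25, took in a 2-fold drop. The brightest probe sets were dim, with a mean under 6 for 13 of the 16. The intervals thus bound what these probe sets read and not the transcripts.

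Cars2, the cysteinyl enzyme, read 5.59, 6.02, 5.33 and 5.75 in Sod2+/+ and 5.42, 5.27 and 5.29 in Sod2-/-. Sod2+/+ 33 lay among the Sod2-/- arrays. The difference was −0.35 with a limma adjusted p of 0.233. Nars2, the asparaginyl enzyme, read 4.54, 4.90, 4.68 and 4.77 in Sod2+/+ and 4.67, 4.31 and 4.39 in Sod2-/-, a difference of −0.27 with a limma adjusted p of 0.237, and again the groups overlapped. On this probe set Nars2 lay on the other side of 0 from Nars, but its second probe set, with a mean of 3.54, stood at 0.08. The other Cars2 probe sets stood at 0.12 and −0.11.

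The highest mitochondrial differences were those of Vars2 and Lars2. Vars2, the valyl enzyme, read 5.86, 5.89, 5.79 and 5.93 in Sod2+/+ and 6.03, 6.00 and 5.98 in Sod2-/-. The groups did not overlap but were close, with a difference of 0.14 and a limma adjusted p of 0.292. Lars2, the leucyl enzyme, read 5.80, 6.12, 5.80 and 5.33 in Sod2+/+ and 5.82, 5.83 and 5.92 in Sod2-/-, so that the Sod2-/- values fell inside the Sod2+/+ range. Its second probe set differed by −0.19.

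Fars2 (phenylalanyl), Sars2 (seryl), Rars2 (arginyl), Yars2 (tyrosyl) and Tars2 (threonyl) lay between −0.24 and −0.13, and Ears2 (glutamyl) and Aars2 (alanyl) at 0.08 and 0.06. Yars2, whose human counterpart is known to cause myopathy with sideroblastic anemia when mutated, read 4.65, 4.68, 4.58 and 4.76 in Sod2+/+ and 4.55, 4.60 and 4.35 in Sod2-/-, with a difference of −0.17 and a limma adjusted p of 0.306. The groups overlapped. Iars2, Pars2, Wars2, Hars2 and Mars2 were within 0.05 of 0. Without overlap between the genotypes were 3 lower (Sars2, Rars2 and Mars2) and 1 higher (Vars2) of the 16, beside 22.0% of all genes in either direction.

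Probe sets of one gene did not always go the same way. Of 23 members with more than 1 probe set, 13 had all of them on 1 side of 0 and 10 had them on both. Over all 72 probe sets 5 were called lower, 2 of Farsb, 2 of Qars and 1 of Kars, where 2.83% of all probe sets were. The widest gap among mitochondrial genes was in Iars2, the isoleucyl enzyme, whose brightest probe set stood at 0.02 while the second, of similar brightness, read 4.87, 5.29, 4.91 and 5.17 in Sod2+/+ and 4.87, 4.17 and 4.13 in Sod2-/-. That second probe set differed by −0.67 with a limma adjusted p of 0.0885. The brightest probe sets of 6 cytosolic members (Aars, Eprs, Farsb, Iars, Qars and Wars) and of Ears2 carry a suffix for probes that may match other transcripts, and so 2 of the 3 calls rest on such probe sets. The second called Farsb probe set has it too, and the second called Qars probe set does not. In Aars the second probe set, without it, gave 0.48 beside 0.46, and in Iars 0.19 beside 0.44.

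Of the 3 scaffolds of the multisynthetase complex, 1 was called lower in Sod2-/- erythroblasts, beside 4.47% of all genes. All 3 had a mean level of 7 to 8, where 14.1% of all genes were called lower. The called scaffold was Aimp1, with 7.86, 7.82, 7.47 and 8.00 in Sod2+/+ and 7.15, 7.03 and 7.32 in Sod2-/-, a difference of −0.62 and a limma adjusted p of 0.0404. Eef1e1, also known as Aimp3, differed by −0.70 with an adjusted p of 0.0519, and Aimp2 by −0.23. The mean deviation of the 3 from their Sod2+/+ mean was −0.57 to −0.47 over the Sod2-/- arrays and −0.33 to 0.13 over the Sod2+/+ arrays. Aimp1 was not called with station or chip lot as a block, at limma adjusted p of 0.0696 and 0.0904. Without Sod2+/+ 33, 2 of the 3 were called, beside 4.09% of all genes lower, and without any other 1 array 0 were. Tarsl2, a second threonyl synthetase gene, was at −0.80 and was not called, with a limma adjusted p of 0.0831, opposite in sign to Tars.

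Downstream of charging, 0 of 4 genes for the eEF1 complex and the tRNA exporter were called. At an unadjusted p under 0.05, 1 was lower and 1 higher, beside 18.4% of all genes lower and 6.68% higher. Eef1b2, the exchange factor subunit, was at −0.49 and Xpot, which exports tRNA from the nucleus, at 0.33, with limma adjusted p of 0.139 and 0.192. Of 3 cytosolic editing genes 0 were called (2 lower at an unadjusted p under 0.05) and all were below 0, led by Prorsd1 at −0.53 and Aarsd1 at −0.33. In the selenocysteine tRNA path 1 of 5 was called lower, beside 4.47% of all genes. This was Sephs2, which makes selenophosphate, at −0.57 with a limma adjusted p of 0.0221. Sephs2 was not called with chip lot as a block, at an adjusted p of 0.0602, with quantile normalization, at −0.33 and 0.0883, or without Sod2+/+ 29, Sod2-/- 35 or Sod2-/- 39.

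In mitochondria, the glutaminyl tRNA is made by an amidotransferase on misacylated tRNA, with no glutaminyl synthetase of its own. Of the 4 genes for that enzyme and for methionyl-tRNA formylation 0 were called, nor any at an unadjusted p under 0.05, and Gatb was at 0.20 and Gatc at −0.14. Of 15 genes for mitochondrial tRNA maturation 1 was called lower, beside 4.47% of all genes. This was Hsd17b10, a subunit of mitochondrial RNase P, with 7.34, 7.51, 7.04 and 7.34 in Sod2+/+ and 6.78, 6.27 and 6.62 in Sod2-/-. The difference was −0.75, with a limma adjusted p of 0.0328. Hsd17b10 was called with either block, and for 2 of the 7 arrays left out in turn. Of 9 mitochondrial translation factors 0 were called, with 3 lower at an unadjusted p under 0.05, beside 18.4% of all genes. All 9 were below 0, with Gfm1, an elongation factor, at −0.58 and a limma adjusted p of 0.0532 and Mtrf1l, a release factor, at −0.51. The median of these 9 was −0.08, and of all genes 0.02.

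Other ATF4 pathway genes were set beside the cytosolic synthetases. Of 26 measured regulators and targets of ATF4 that are no synthetases, 2 were called higher and 0 lower in Sod2-/-. Over all genes 0.412% were called higher and 4.47% lower. Above 0 were 25 of the 26, with a median of 0.47, beside 9859 of all 18193 genes. The 2 were Slc3a2, the heavy chain of several amino acid transporters, at 0.95 with a limma adjusted p of 0.0332, and Mthfd2, a mitochondrial folate enzyme, at 1.73 with 0.0413. With chip lot as a block neither was called, Slc3a2 at 0.83 with a limma adjusted p of 0.178 and Mthfd2 at 1.14 with 0.275, and with station as a block Mthfd2 was at an adjusted p of 0.0522. Each kept its call for 1 of the 7 arrays left out in turn, Sod2+/+ 17. The mean over the 26, taken as a deviation from the Sod2+/+ mean, was 0.53 in Sod2+/+ 17, between −0.29 and −0.10 in the other Sod2+/+ arrays, and 0.66, 0.37 and 0.83 in Sod2-/- 31, 35 and 39. Sod2+/+ 17 again lay between the Sod2-/- arrays. The same mean over the 19 cytosolic synthetases was 0.32 in Sod2+/+ 17 and −0.03, −0.24 and −0.05 in Sod2+/+ 29, 33 and 37. In Sod2-/- 31, 35 and 39 it was 0.20, −0.09 and 0.07. This mean takes in genes that differed in opposite directions. In 7 of the 19 every Sod2-/- array was above Sod2+/+ 29, 33 and 37, and in 4 every Sod2-/- array was below them. Among all 18193 genes these counts were 1983 and 3180. Without Sod2+/+ 17, 9 of the 26 were called higher, beside 0.275% of all genes, and the median was 0.64. That array had the highest Sod2+/+ value in 19 of the 26, so this rise follows from its removal. These genes were chosen with earlier results of these data known and are not independent evidence of direction. Of 4 eIF2alpha kinases 0 were called, and 1 was lower at an unadjusted p under 0.05, beside 18.4% of all genes. This was Eif2ak3, at −0.54, while Eif2ak1, the heme-regulated kinase of erythroid cells, was at 0.21.

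**Figure D5:**
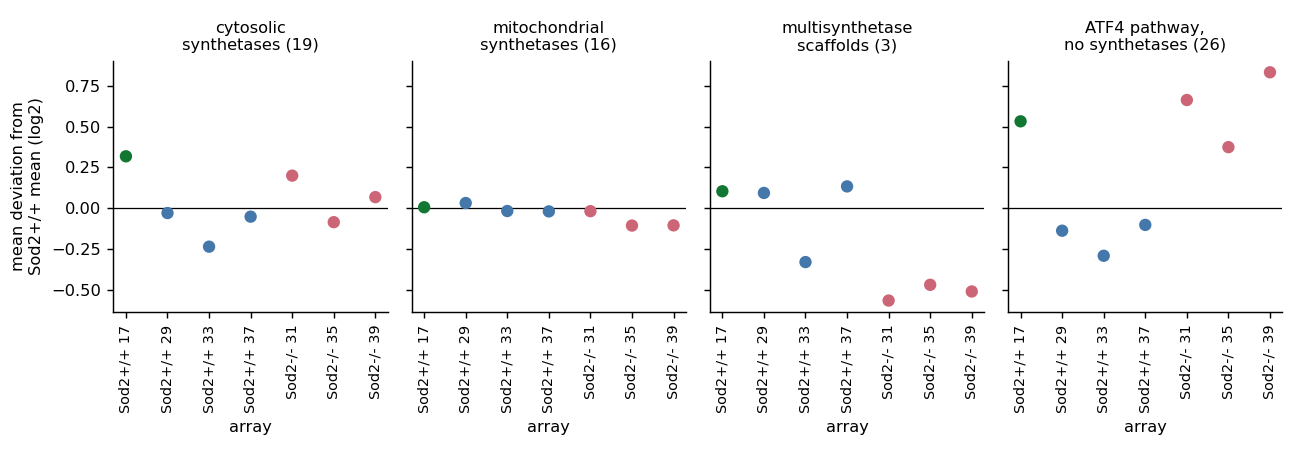
Mean deviation of 4 gene lists from their Sod2+/+ mean on each array (log2), with Sod2+/+ 17 in green, the other Sod2+/+ arrays in blue and the Sod2-/- arrays in red. The ATF4 pathway genes show Sod2+/+ 17 at 0.53 beside 0.37 to 0.83 in Sod2-/-, the cytosolic synthetases show it at 0.32, above every other array, and the mitochondrial synthetases stay between −0.11 and 0.03 throughout.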

How the data were processed

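RNA of sorted erythroblasts was hybridized to 7 Affymetrix arrays. The authors deposited log2 values made by RMA, after scanning with GCOS 1.3.037 per the submitters' processing notes. Control probe sets (64) were dropped, and symbols came from the platform annotation: 34945 probe sets matched 1 gene, 932 several and 9160 none. Of the gene identifiers 99.1% were in the RefSeq table of GRCm38.p6. A linear model with genotype as its only term was fitted with limma 3.58.1 (R 4.3.3), moderated by eBayes, on all 45037 probe sets, with Benjamini-Hochberg adjustment and a threshold of 0.05, after being tested on simulated data. Every member with a probe set was named, with array values for those called and for the 2 largest changes in each direction and compartment, and other members given array values were chosen after their values were seen. From each pathway list the 3 largest called changes, or the 2 largest where none was called, were named. The members and lists were chosen with earlier results of these data known, though the rule for members reads no value. Protein sequences were not used here. With so few arrays, their number limits the precision.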

Additional observations from a re-analysis of the deposited data

Results flagged for a closer look

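Among the 4 Sod2+/+ arrays, 4 synthetase values lay far from the other 3, by the gap to the nearest array as a share of the whole range. In Sod2+/+ 17 these were Aars at 10.67, Gars at 9.632 and Sars at 9.664, each above the other Sod2+/+ arrays and within the Sod2-/- range. In Sod2+/+ 33, Fars2 was low at 6.229, within the Sod2-/- range of 5.90 to 6.27. Chance marks about 1 in 20 groups in this way.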

How the results depend on the processing

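With all 7 arrays 3 cytosolic synthetases were called lower and 0 higher. The methods' t-test gave 0 lower with equal or unequal variances (all genes 0.011% and 0), as did each station alone (all genes 0). The study ran its t-test on 4 arrays of each genotype with a fold-change cutoff, so these counts cannot be set against its own. An offset of 32 gave 1 lower (all genes 0.649%). Quantile normalization, the mean of all probe sets and the Sod2+/+ chip lot alone gave 2 (all genes 2.78%, 4.11% and 1.62%), and bright probe sets alone 4 (11.1%). Called higher were 1 with trend and robust estimation (all genes 0.346%), 1 with station as a block (0.258%), 1 with the mean of all probe sets (0.599%), 2 with quantile normalization (1.43%) and 2 with bright probe sets alone (0.978%). Leaving out 1 array gave 0 to 3 lower and 0 to 5 higher, the 5 without Sod2+/+ 17. The mitochondrial counts were 0 in both directions under each of these and the remaining alternatives (array weights, centring, chip lot).

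The cytosolic median was 0.29 with quantile normalization and −0.022 with chip lot as a block or within that lot, and −0.051 to 0.25 leaving out 1 array. The mitochondrial median was −0.065 with quantile normalization, −0.078 with arrays centred, −0.014 with the offset, −0.068 in station 2, −0.10 with the mean of all probe sets and −0.062 to −0.030 leaving out 1 array.

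Sign changes occurred in genes near 0 that were not called. With array weights Iars2 was at −0.0037 and Pars2 at 0.0054. With quantile normalization Wars was at 0.17, Iars2 at −0.0028 and Gatc at 0.069. With centring Eprs was at −0.017 and Iars2 at −0.021. In station 1 Hars2 was at 0.057, Iars2 at −0.0085, Lars2 at −0.14, Pars2 at 0.080 and Tars2 at 0.21, and in station 2 Wars at 0.039 and Wars2 at 0.064. By chip lot Lars was at −0.28, Yars at −0.041, Wars2 at 0.098 and Gatc at 0.080. With the mean of all probe sets Iars2 was at −0.33, Lars2 at −0.046 and Wars2 at 0.057. Leaving out 1 array, ranges crossing 0 were −0.010 to 0.11 (Aars2), −0.060 to 0.13 (Eprs), −0.079 to 0.0041 (Hars2), −0.034 to 0.060 (Iars2), −0.057 to 0.25 (Lars), −0.049 to 0.21 (Lars2), −0.020 to 0.023 (Pars2), −0.097 to 0.034 (Wars) and −0.068 to 0.037 (Wars2). The cause was not tested.

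No paired analysis was possible because the genotypes share no replicate number. Pairs of both genotypes were sorted in parallel, but the labels do not say which arrays form a pair. Of the alternatives for single genes 911 kept direction and call, 95 lost the call, 19 gained it and 45 changed sign. Dim probe sets limit what the mitochondrial values can show.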
